A study of Mus musculus with 12 samples.

Results

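The nuclear genes that encode subunits of the mitochondrial respiratory chain and of ATP synthase were followed in 12 livers of mice with carbon tetrachloride injury. Members were taken by symbol: names starting with Ndufa, Ndufb, Ndufc, Ndufs, Ndufv, Uqcr, Cox4i, Cox5, Cox6, Cox7, Cox8 or Atp5, together with Sdha, Sdhb, Sdhc, Sdhd and Cyc1. Of 108 rows with such names, 8 Ndufaf assembly factors and 9 rows with a pseudogene name were left out, which left 91 members of 56923 rows in the count table. By complex, 39 members belong to complex I, 4 to complex II, 9 to complex III, 21 to complex IV and 18 to complex V.

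All 12 animals were WT C57BL/6J mice, 6 weeks old, and every one, the controls included, received intraperitoneal injections of 200 µL of 7.5% carbon tetrachloride (CCl4), a liver toxicant, in olive oil 2 times a week for 6 weeks. The control (CCl4) group received no curcumin, and the low, medium and high groups received curcumin, a plant polyphenol, by gavage daily for 2 weeks at 25, 50 and 100 mg/kg. Each group held 3 livers, which the labels call biological replicates, and p-values measure the spread between these samples. Mice were housed 3 to a cage, so a cage and a group cannot be told apart if the groups were caged together. The sources used here do not say whether the controls were gavaged with vehicle, and no uninjured liver was analysed here. The study asked how each dose differed from injury alone.

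The respiratory chain carries electrons from NADH (complex I) and succinate (complex II) through complex III to complex IV, which passes them to oxygen. Complexes I, III and IV pump protons across the inner mitochondrial membrane, and ATP synthase (complex V) makes ATP from the gradient. All subunits of complex II and most subunits of the others are encoded in the nucleus and imported, while the mitochondrial genome encodes a few hydrophobic core subunits of complexes I, III, IV and V. Hepatocytes are rich in mitochondria, and their urea cycle, gluconeogenesis and fatty acid oxidation depend on this machinery.

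Since most members moved together between livers, as described later, the sequence before their start sites was searched for sites of factors known from the promoters of such genes. RefSeq windows (GRCm38.p6) were found for 69 of 90 member symbols, 74 windows in all, and the 250 bases before each annotated start were searched on both strands. The motif of NRF1, whose matches are the runs of 10 capitals in the windows printed here, was present in 18.9% of the member windows and in 3.74% of all 32851 windows. The ETS-family motif CCGGAAG was present in 16.2% of member windows and in 6.91% of all windows. The YY1 motif AAGATGGCG was present in 1.35% of member windows and in 0.606% of all windows. At least 1 of these motifs was found in 23 of the 74 member windows (31.1%), against 10.5% of all windows, and in no member window did matches of different motifs overlap. A match is a string of letters and not a shown binding site. Windows of a member can overlap, and both windows of Ndufa5 hold the same NRF1 match. Base composition was not matched between member windows and all windows, and a link between the motifs and the levels was not tested. For each complex the window with the most matches is printed below, with the steeper of the slopes described later deciding ties. Capitals mark the matches on either strand, and each sequence is written 5′ to 3′ toward the start site.
Ndufb4, chr16:37654369-37654618, minus strand: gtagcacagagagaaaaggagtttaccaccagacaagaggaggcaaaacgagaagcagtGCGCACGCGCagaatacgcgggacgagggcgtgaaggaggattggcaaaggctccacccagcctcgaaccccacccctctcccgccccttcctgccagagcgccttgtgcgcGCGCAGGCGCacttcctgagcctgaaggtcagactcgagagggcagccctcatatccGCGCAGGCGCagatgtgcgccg
Sdha, chr13:74350241-74350490, minus strand: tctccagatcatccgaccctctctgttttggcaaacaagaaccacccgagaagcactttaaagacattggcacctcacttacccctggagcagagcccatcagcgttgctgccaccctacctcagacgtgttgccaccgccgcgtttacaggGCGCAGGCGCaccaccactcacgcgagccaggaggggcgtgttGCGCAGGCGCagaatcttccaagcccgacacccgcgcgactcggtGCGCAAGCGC
Uqcr11, chr10:80406822-80407071, minus strand: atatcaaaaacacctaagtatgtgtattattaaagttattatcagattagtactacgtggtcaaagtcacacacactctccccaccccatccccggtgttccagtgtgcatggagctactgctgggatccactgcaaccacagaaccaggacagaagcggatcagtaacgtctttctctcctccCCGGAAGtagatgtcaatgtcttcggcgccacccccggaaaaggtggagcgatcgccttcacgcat
Cox6a1, chr5:115348959-115349208, minus strand: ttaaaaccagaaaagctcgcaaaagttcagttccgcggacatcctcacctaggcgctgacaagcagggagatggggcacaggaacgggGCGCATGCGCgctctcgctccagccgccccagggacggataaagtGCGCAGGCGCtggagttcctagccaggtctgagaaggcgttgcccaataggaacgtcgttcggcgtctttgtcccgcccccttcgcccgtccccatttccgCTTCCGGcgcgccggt
Atp5j, chr16:84834977-84835226, minus strand: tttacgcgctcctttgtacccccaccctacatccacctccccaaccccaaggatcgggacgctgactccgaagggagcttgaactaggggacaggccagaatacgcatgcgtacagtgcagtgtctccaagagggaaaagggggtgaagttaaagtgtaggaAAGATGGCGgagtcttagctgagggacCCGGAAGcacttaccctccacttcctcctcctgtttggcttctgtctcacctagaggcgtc
The windows of Ndufb4, a supernumerary subunit of complex I, and of Sdha, the flavoprotein of succinate dehydrogenase, each hold 3 stretches that match the NRF1 motif. The window of Cox6a1, a small subunit of complex IV, holds 2 such stretches and 1 ETS match. Uqcr11, a small subunit of complex III, has 1 ETS match, and Atp5j, a stalk subunit of ATP synthase, has 1 YY1 and 1 ETS match.

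Counts per library ranged from 36015134 to 70376474. The libraries differed widely in the share of counts on the 37 mitochondrially encoded rows, which is called the mitochondrial share here. High replicate 1 had the lowest share, 30.3%, and high replicate 2 the highest, 64.7%. Next to the lowest were high replicate 3 at 42.1%, low replicate 3 at 43.0% and medium replicate 1 at 48.3%, and each of the other libraries had 55.5% or more. Not counted in this share are 11 nuclear genes that are near-identical copies of mitochondrial genes. They held a further 10.9% of counts in high replicate 1, the lowest value, to 23.3% in low replicate 1, the highest. The members took from 0.0796% of all counts in high replicate 2 to 1.13% in high replicate 1. As a share of counts without mitochondrial genes and their nuclear copies, the members took from 0.587% in control replicate 3 to 1.92% in high replicate 1. Hepatocyte markers were abundant in every library, with a summed level of 10 markers from 5541 to 48222 CPM, which are counts scaled to a common library total. Levels below are CPM scaled by the trimmed mean of M-values (TMM), and levels of different genes are compared only as CPM per kilobase of transcript.

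In this injured liver the most abundant member transcripts per kilobase, as means over the 12 libraries, were small subunits of complexes III and IV, an order that rests on a few livers with high member levels. Uqcrq, a small subunit of complex III, stood at 207 CPM per kilobase, Cox7c at 179 and Cox6c at 126, both small subunits of cytochrome c oxidase. Uqcrq was the highest member in the 4 livers with the lowest mitochondrial share, while in the other 8 livers the highest was Cox7c in 4, Ndufa6 in 3 and Atp5h in 1. As means over the 3 controls Cox7c stood at 94.6 CPM per kilobase, Ndufa6 at 72.3, Uqcrq at 72.2 and Atp5h at 69.5. Over all 12 libraries, in complex I the highest levels per kilobase were those of Ndufa6, at 114, and Ndufa3, at 89.7, both supernumerary subunits, and the lowest tested was Ndufs4, at 3.81. ATP synthase was led by Atp5e, the epsilon subunit of its F1 part, at 108 CPM per kilobase, and Atp5h, a stalk subunit, at 103. Complex II had lower levels, from 9.60 CPM per kilobase for Sdha to 37.8 for Sdhb, the iron-sulfur subunit. Within complexes the level per kilobase spanned 30.01-fold in I, 3.94-fold in II, 14.1-fold in III, 217-fold in IV and 39.0-fold in V. The wide span of complex IV came from isoforms that were nearly silent here: the lowest tested member, Cox6b2, known as a testis isoform, stood at 0.824 CPM per kilobase.

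Of the 91 members, 84 passed the filter on low counts and were tested among 16839 genes. The 7 others were Ndufa11b, Cox7b2, Cox8c and a second row named Atp5o, each with 0 counts in all libraries, Ndufs6b with 28 counts in total, Cox4i2 with 29 and Cox6a2 with 451. Cox4i2 is a lung and hypoxia isoform of subunit 4, Cox7b2 and Cox8c are known as testis isoforms, and Cox6a2 is the heart and skeletal muscle isoform of subunit 6a. For these members the liver data give no tested value, and a count of 0 allows up to 3 counts in a library.

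In all 3 comparisons with CCl4 alone most members had a higher fitted level with curcumin, but none of the 84 passed the test. In the low group 82 of 84 members had a positive log2 difference, with a median of 0.73. The medium group had 79 of 84 positive with a median of 0.57, and the high group 83 of 84 with a median of 1.46. Over all genes tested the medians were 0.01, 0.02 and 0.03. By edgeR's quasi-likelihood test with Benjamini-Hochberg adjustment, the smallest adjusted p over members was 0.813 in the low, 0.997 in the medium and 0.352 in the high comparison, where 0.0% of all genes were called in each comparison. The 3 comparisons share the same 3 control livers, so their directions are not independent of each other. In whole liver, fewer cells of a type and less RNA per cell cannot be told apart.

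The member counts at an unadjusted p under 0.05 differed between the doses. Higher members numbered 2 of 84 in the low comparison, where 2.49% of all genes were higher by that rule, and 0 in the medium comparison, against 2.59%. In the high comparison 44 of 84 members were higher by that rule, against 7.87% of all genes, and in the slope on dose, fitted over 0, 25, 50 and 100 mg/kg, 45 were higher against 6.51%. None was called in the slope on dose either, with a smallest adjusted p of 0.291 and a median of 1.30 on the log2 scale per 100 mg/kg, against 0.03 for all genes. DESeq2, run as another tool, called 0 members in the low and medium comparisons and 1 member, Cox8b, in the high comparison and in the slope on dose. It called 0.0772%, 0.35%, 0.499% and 0.16% of all genes higher in the low, medium, high and slope fits. Cox8b passed the filter through the livers where it is high, as described later, so its call is a description and no test of dose. The limma voom fit called 0 members in each of these 4 fits, where it called 0.0%, 0.166%, 0.499% and 0.0% of all genes higher.

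The high values sat in single livers and not in whole groups. Relative to the control mean, the median member stood at 0.995, 1.04 and 2.63 times in the 3 low livers, at 2.37, 1.04 and 0.991 times in the 3 medium livers and at 4.87, 0.850 and 2.19 times in the 3 high livers. The 3 controls stood at 1.23, 0.877 and 0.819 times. Each dose group therefore held livers inside the control range beside livers far above it. The 4 livers that stood above it were low replicate 3, medium replicate 1, high replicate 1 and high replicate 3, which were also the 4 with the lowest mitochondrial share. In 66 of the 84 tested members these 4 libraries were the 4 highest of the 12, and in 79 members high replicate 1 was the highest of all. The lowest library was control replicate 3 for 30 members and high replicate 2 for 21.

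**Figure D1:**
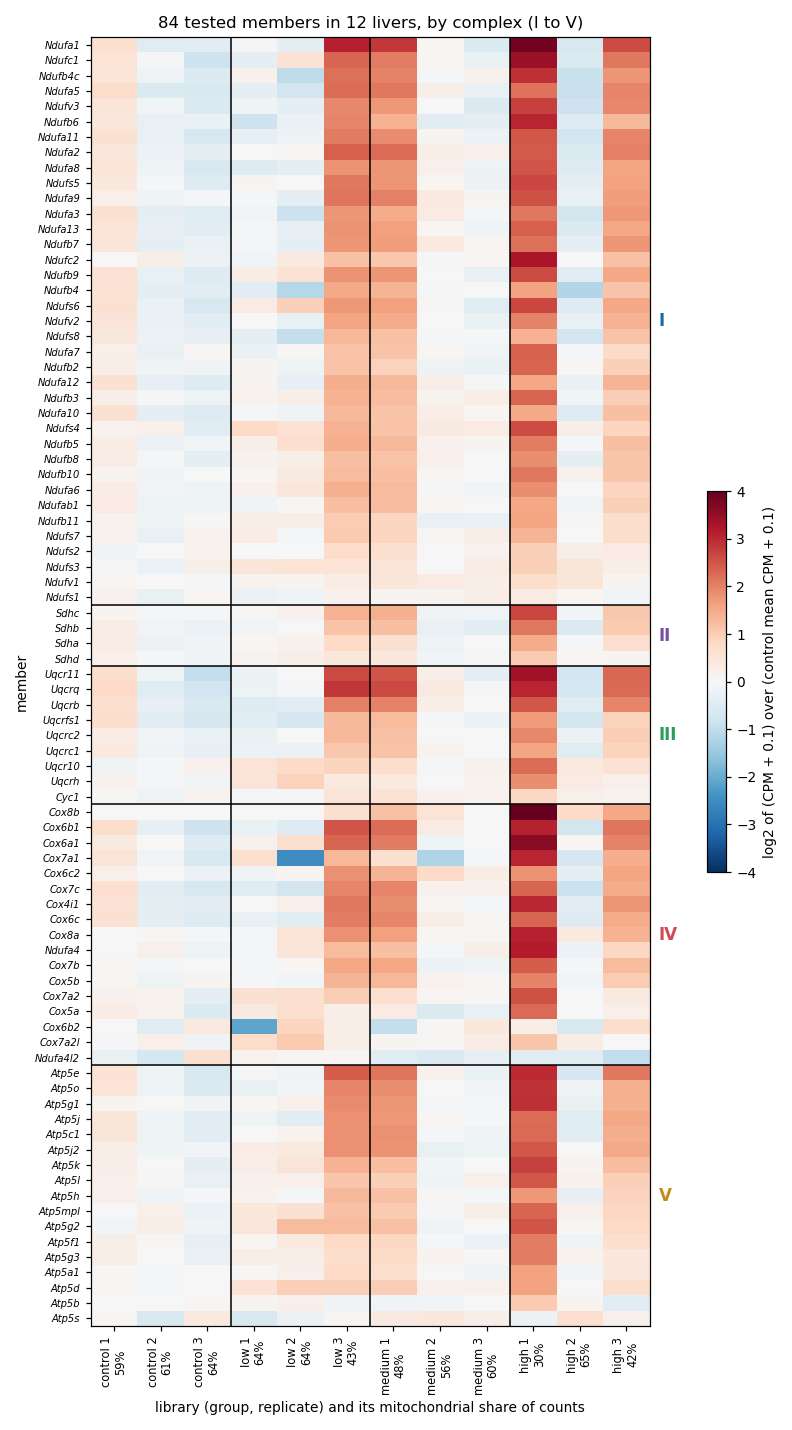
Level of each of the 84 tested members (rows, by complex I to V and within a complex by slope on the mitochondrial share) in each library (columns, with its mitochondrial share of counts), as log2 of CPM + 0.1 over the control mean CPM + 0.1. Low replicate 3, medium replicate 1, high replicate 1 and high replicate 3 are red in most rows, while the other livers given curcumin stay near the controls.

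Leaving out 1 liver changed the size of the dose differences. Without low replicate 3 the median log2 difference of the members in the low comparison was 0.03. Without medium replicate 1 the median in the medium comparison was 0.01. Without high replicate 1 the high comparison had a median of 0.62 and the slope on dose a median of 0.52. With the mitochondrial share as a term in the fit, the medians were 0.19 in the low, 0.04 in the medium and -0.08 in the high comparison and -0.14 in the slope on dose, with 0 members called in each.

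The members that did not overlap the controls were few. In the low comparison 12 of 84 members had all 3 low livers above all 3 controls, against 7.41% of all genes, in the medium comparison 5 against 7.61%, and in the high comparison 9 against 6.47%. No member had all livers of a dose group below all controls, where 6.36%, 6.38% and 6.52% of all genes did so. The medium count is thus below its background share, and the others are above theirs. Ndufv1 and Ndufs4 were among the non-overlapping members at all 3 doses.

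At the low dose the members with the smallest p were Cox7a2l, Atp5d and Ndufs3, and none passed after adjustment. Cox7a2l was listed here as a factor for joined complexes (supercomplexes), a function not tested in these mice. It stood at 6.14, 7.49 and 5.91 CPM in the controls and at 10.96, 13.7 and 7.74 CPM in the low livers. All 3 low livers were above the controls, and unlike most members it was highest among them in replicates 1 and 2 and not in replicate 3. Its log2 difference was 0.73 ± 0.30 (SE; edgeR adjusted p = 0.813). Atp5d, the delta subunit of the F1 part of ATP synthase, stood at 31.7, 28.8 and 30.5 CPM in the controls and at 45.3, 58.9 and 59.0 CPM in the low livers. The groups did not overlap, and the log2 difference was 0.84 ± 0.38 (SE; edgeR adjusted p = 0.822). Ndufs3, a core subunit of the matrix arm of complex I, stood at 27.4, 23.9 and 33.2 CPM in the controls and at 39.8, 41.6 and 40.8 CPM in the low livers, again without overlap. Its log2 difference was 0.53 ± 0.26 (SE; edgeR adjusted p = 0.823). A near-identical copy of Ndufs3 elsewhere in the genome held 20.6% as many counts as the gene itself, so its counts may be split.

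At the medium dose the smallest p-values belonged to Cox8b, Ndufv1 and Ndufa2. Ndufv1, the flavoprotein that accepts electrons from NADH, stood at 21.4, 20.5 and 19.1 CPM in the controls and at 28.3, 25.6 and 24.5 CPM in the medium livers. The groups did not overlap, but the difference was small, at 0.36 ± 0.22 (SE) on the log2 scale, with an edgeR adjusted p of 0.997. Ndufa2, a supernumerary subunit of the matrix arm, stood at 15.7, 9.58 and 8.76 CPM in the controls and at 53.5, 13.6 and 12.9 CPM in the medium livers. Here 1 medium liver was far above the rest, and the other two lay within the control range. The log2 difference of Ndufa2 was 1.24 ± 0.82 (SE; edgeR adjusted p = 0.997), and 0.23 without medium replicate 1.

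At the high dose the smallest p-values belonged to Cox8b, Ndufc2 and Ndufs4. Ndufc2 (ENSMUSG00000030647), a membrane-arm subunit of complex I, stood at 3.78, 4.44 and 3.19 CPM in the controls and at 37.5, 3.81 and 8.75 CPM in the high livers. High replicate 1 was far above the rest, high replicate 3 was above all controls, and high replicate 2 lay among the controls. The log2 difference was 2.14 ± 0.67 (SE; edgeR adjusted p = 0.371), and 0.73 without high replicate 1. Ndufs4, a matrix-arm subunit needed for a stable complex I, stood at 3.75, 3.87 and 2.48 CPM in the controls and at 21.1, 4.06 and 6.16 CPM in the high livers. The groups did not overlap, although high replicate 2 was only just above the highest control. Its log2 difference was 1.64 ± 0.52 (SE; edgeR adjusted p = 0.371), and 0.61 without high replicate 1. Ndufa4, a subunit of complex IV despite its name, had one of the 3 smallest p-values in the slope on dose, with 6.72, 7.75 and 5.84 CPM in the controls and 60.8, 5.76 and 12.2 CPM in the high livers. The slope of Ndufa4 was 1.85 ± 0.59 per 100 mg/kg (SE; edgeR adjusted p = 0.412), and 0.29 without high replicate 1. One high liver thus carried most of each of these differences.

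In a fit over all 12 livers, the level of the members was lower at a higher mitochondrial share. With the share in place of the group, 76 of 84 members were lower at a higher share by edgeR's quasi-likelihood test at an adjusted p under 0.05, and 0 were higher. By the same rule 18.5% of all genes were lower and 15% higher. The median over the members was -0.72 on the log2 scale for each 10 percentage points of mitochondrial share, and -0.00 over all genes. With the group as a term, 73 members were lower, against 15.7% of all genes. Without high replicate 1, 66 were lower, against 11.3%. Without the 2 livers farthest from the median share, high replicates 1 and 3, 65 of 85 tested members were lower, against 8.06%. Low replicate 3 and medium replicate 1, also set apart by a low share, stayed in that fit. Among livers at 55.5% or more, the median member was lowest, 0.819 times the control mean, in control replicate 3 (share 64.2%). It was highest, 1.23 times, in control replicate 1 (58.6%), and 1.04 times in medium replicate 2 (55.5%) and low replicate 2 (64.1%). The slope among these livers alone was not tested. The 13 mitochondrially encoded subunits all rose with the share, with a median of 0.77, but they are counted in the share itself, so this rise is a property of its definition. Within a library a larger mitochondrial share also leaves fewer counts for all other genes, and TMM scaling is computed from the genes left; the size of the slope depends on this scaling. It was -1.19 with library totals as the scale, while all genes had a median of -0.48, and -0.90 with totals without mitochondrial genes, where that of all genes was -0.18. With totals that also leave out the 11 nuclear copies of mitochondrial genes it was -0.52, where all genes had a median of 0.19, and 70 members were lower against 8.98% of all genes. Under that scaling 1 member, Ndufa4l2, was called higher with the share, at 0.37 (edgeR adjusted p = 0.023), while with library totals and with totals without mitochondrial genes 0 members had a positive slope.

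In complex I, the 37 tested members had a median slope of -0.77 on the log2 scale per 10 points of share, and 34 were called lower. The counts called lower in this and the other complexes stand beside 18.5% of all genes called lower. The subunits of the matrix arm that carry out catalysis moved least. The 7 core subunits, which hold the flavin and the iron-sulfur clusters, had a median of -0.26, with 4 called lower. The 9 supernumerary matrix-arm subunits had a median of -0.81 and the 19 supernumerary membrane-arm subunits a median of -0.86, and all 28 were called lower. The difference between these roles was not tested, since members of a complex are not replicates. Ndufs1 (ENSMUSG00000025968), the largest core subunit, stood at 25.6, 18.3 and 23.7 CPM in the controls and at 28.5, 23.7 and 20.9 CPM in the high livers. Its highest library was 1.56 times its lowest, the smallest such ratio of the tested members, against a median of 6.52. Its slope was -0.08 ± 0.06 (SE; edgeR adjusted p = 0.321). Ndufv1 and Ndufs3 were not called either, with slopes of -0.12 ± 0.06 and -0.14 ± 0.07 and edgeR adjusted p-values of 0.145 and 0.177.

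Ndufa1 (ENSMUSG00000016427), a small membrane-arm subunit, showed the opposite extreme. It stood at 4.10, 1.81 and 1.90 CPM in the controls, at 2.497, 1.96 and 23.4 CPM in the low livers, at 19.3, 2.72 and 1.74 CPM in the medium livers and at 39.3, 1.64 and 16.3 CPM in the high livers. The 4 livers with the lowest mitochondrial share were each at 16.3 CPM or more and the other 8 at or below 4.10 CPM, so the libraries fell in separate ranges. The highest library was 23.9 times the lowest, and the slope was -1.51 ± 0.13 (SE; edgeR adjusted p = 2.07e-06). The members with the smallest p for this slope were Ndufv3, Ndufb6 and Ndufa8, all supernumerary, with slopes of -1.06 ± 0.08, -1.05 ± 0.08 and -0.98 ± 0.08 and the same edgeR adjusted p of 1.39e-06. Ndufv3 stood at 13.8, 9.10 and 6.47 CPM in the controls and at 65.3, 5.45 and 37.4 CPM in the high livers. Transcripts of Ndufb6 overlap those of Smim27, which held 51.9% as many counts, so the value of Ndufb6 is uncertain. Ndufs1, Ndufa1, and the Uqcr11, Uqcrh, Uqcr10, Cox5a and Atp5b values below, were chosen for naming after their values were seen.

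**Figure D2:**
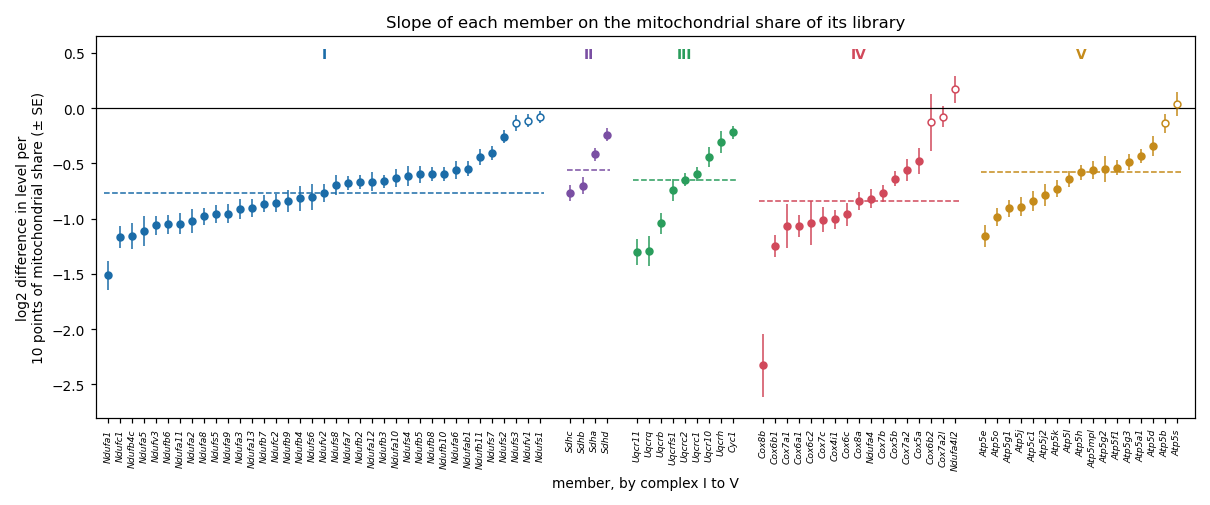
Slope of each tested member on the mitochondrial share of its library (log2 difference in level per 10 percentage points, points with SE), by complex; filled points passed an edgeR adjusted p under 0.05, open points did not, and dashed lines are the medians of the complexes. Nearly all points lie below 0, from -2.33 for Cox8b to 0.17 for Ndufa4l2, and the catalytic core subunits Ndufs1, Ndufv1 and Ndufs3 are the open points of complex I. Cox8b passed the filter through the livers where it is high.

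In complex II, all 4 subunits of succinate dehydrogenase were called lower at a higher share, with a median slope of -0.56. Sdhc, a membrane anchor, had a slope of -0.77 ± 0.07 (SE; edgeR adjusted p = 2.29e-06) and stood at 12.5, 11 and 10.9 CPM in the controls and at 73.8, 10.7 and 24.3 CPM in the high livers. Sdhd, the other anchor, moved less: it stood at 15.3, 12.7 and 11.8 CPM in the controls and at 27.5, 14.0 and 14.3 CPM in the high livers, with a slope of -0.24 ± 0.06 (SE; edgeR adjusted p = 0.00448). Sdhb fell by 0.70 ± 0.07 and Sdha by 0.42 ± 0.06 on the log2 scale per 10 points, with edgeR adjusted p-values of 5.68e-06 and 7.64e-05. The 2 anchors of 1 complex thus differed in the spread of their levels, 7.13-fold between the highest and lowest library for Sdhc and 2.32-fold for Sdhd.

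In complex III, all 9 tested members were called lower at a higher share, with a median slope of -0.65. The 5 small subunits had a median of -1.04, the 2 core proteins a median of -0.62 and the 2 catalytic subunits a median of -0.48. Cyc1 (ENSMUSG00000022551), which carries the heme of cytochrome c1, stood at 35.4, 29.8 and 38.5 CPM in the controls and at 62.0, 40.2 and 37.8 CPM in the high livers. Its slope was the least steep of the complex, at -0.22 ± 0.06 (SE; edgeR adjusted p = 0.0107). Uqcrq (ENSMUSG00000044894), the most abundant member per kilobase, stood at 61.6, 26.1 and 21.4 CPM in the controls, at 31.9, 34.5 and 262 CPM in the low livers, at 229, 46.9 and 35.1 CPM in the medium livers and at 303, 22.3 and 175 CPM in the high livers. Again the 4 livers with the lowest share were set apart from the rest, which all lay at or below 61.6 CPM. Its slope was -1.29 ± 0.14 (SE; edgeR adjusted p = 5.68e-06), and that of Uqcr11 was -1.30 ± 0.12 (SE; edgeR adjusted p = 1.95e-06).

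Some small subunits of complex III had another pattern. Uqcrh, the hinge protein, stood at 17.6, 15.1 and 14.5 CPM in the controls and at 57.9, 19.97 and 18.2 CPM in the high livers, while low replicate 3 and medium replicate 1 stood at 20.5 and 20.6 CPM. Only high replicate 1 was far above the rest. Uqcr10 was alike, with 59.9 CPM in high replicate 1 and at most 23.3 CPM in the other 11 livers. Their slopes were -0.31 ± 0.10 and -0.45 ± 0.09, with edgeR adjusted p-values of 0.0254 and 0.00144.

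In complex IV, 14 of 17 tested members were called lower at a higher share, with a median slope of -0.84. Cox8b is among the 14, although it passed the filter through the livers where it is high. The 11 broadly expressed subunits were all called lower, with a median of -0.84, among them Cox4i1 (ENSMUSG00000031818), the main isoform of the largest nuclear subunit. Cox4i1 stood at 42.3, 21.9 and 21.2 CPM in the controls, at 28.9, 33.1 and 124 CPM in the low livers, at 105, 30.3 and 27.8 CPM in the medium livers and at 232, 20.9 and 96.3 CPM in the high livers. Its slope was -1.0045 ± 0.09 (SE; edgeR adjusted p = 1.47e-06). Cox5a, a matrix-side subunit, was high in 1 liver only, at 28.5 CPM in high replicate 1 against at most 9.22 CPM in the others. The 3 members not called were Cox7a2l, Cox6b2 and Ndufa4l2, with slopes of -0.08 ± 0.10, -0.13 ± 0.26 and 0.17 ± 0.12. These depended on the scaling: Cox7a2l was called lower with library totals, at -0.54 (edgeR adjusted p = 1.14e-05), and with totals without mitochondrial genes, at -0.25 (edgeR adjusted p = 0.0219).

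In complex V, 15 of 17 tested members were called lower at a higher share, with a median slope of -0.58. The 4 peripheral stalk subunits had a median of -0.74, the 4 small membrane subunits a median of -0.69, the 3 genes for the c ring a median of -0.55 and the 5 subunits of the F1 part a median of -0.43. Within the F1 part the slopes ran from -1.16 ± 0.10 for Atp5e to -0.14 ± 0.08 for Atp5b (SE; edgeR adjusted p = 1.47e-06 and 0.217). Atp5b (ENSMUSG00000025393), the catalytic beta subunit, stood at 61.3, 61.7 and 64.0 CPM in the controls, at 66.8, 72.4 and 56.8 CPM in the low livers, at 54.9, 57.5 and 61.8 CPM in the medium livers and at 128, 66.6 and 45.9 CPM in the high livers. All but 2 of the 12 livers lay between 54.9 and 72.4 CPM, while high replicate 1 was above them and high replicate 3 below. Atp5s, which has the prefix but is no structural subunit, was the other member not called, with a slope of 0.04 ± 0.11 (SE; edgeR adjusted p = 0.819).

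Summed over the members of a complex, the level per kilobase in high replicate 1 was 5.07 times that of the lowest library for complex I, 4.66 times for complex II, 7.60 times for complex III, 8.17 times for complex IV and 5.57 times for complex V. Without high replicate 1 the same ratios were 3.57, 2.44, 5.33, 4.94 and 3.26. The sums of complexes III and IV therefore had the wider range with and without that liver. By member, with every liver included, this held for complex IV but not for complex III. Among tested members the median ratio of highest to lowest library was 5.25 in complex III, against 6.32 in I and 6.52 in V. It was 8.27 in IV and 4.93 in II. Uqcrq alone gave 601 of the 1646 CPM per kilobase of complex III in high replicate 1. The sum for complex IV was 379 ± 129 CPM per kilobase (SD, n = 3) in the controls and 709 ± 622, 707 ± 523 and 1239 ± 1047 in the low, medium and high groups. For complex II it was 49.0 ± 8.40 in the controls and 66.6 ± 27.6, 60.9 ± 33.0 and 106 ± 75.7 in the dose groups (SD, n = 3). The group ranges overlapped in both, and every dose group held at least 1 liver inside or below the control range.

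**Figure D3:**
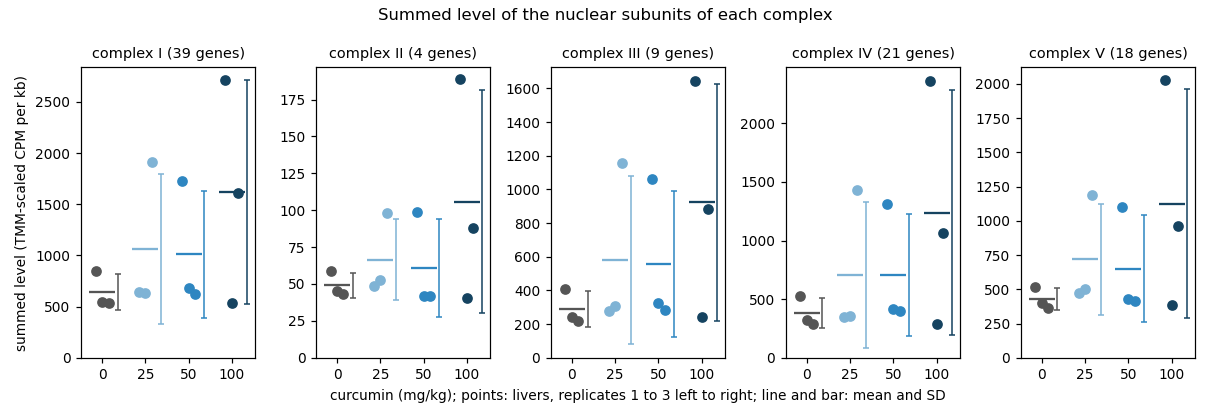
Summed level of the members of each complex (TMM-scaled CPM per kilobase) against the curcumin dose; points are livers, in replicate order from left to right, lines are group means and bars are SDs (n = 3). In each complex 1 low, 1 medium and 2 high livers lie above the others, and the remaining livers given curcumin lie near the controls.

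The makeup of the sum also shifted. As a share of the summed level of all members, complex I took 37.0% in control replicate 3 and 30.4% in high replicate 1, its highest and lowest values. Complex IV took from 19.2% in low replicate 2 to 26.4% in high replicate 1. Complex III took from 14.9% in control replicate 3 to 20% in medium replicate 1, and complex II from 1.70% in low replicate 3 to 2.96% in control replicate 3. Complex V took from 20.6% in low replicate 3 to 26.9% in low replicate 2. By group the complex IV share was 21.0% ± 1.21 in the controls and 21.1% ± 3.15, 23.0% ± 1.55 and 23.0% ± 3.47 in the low, medium and high groups (SD, n = 3), ranges that overlapped.

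Set against their mitochondrially encoded partners, the nuclear subunits were the minor part of each complex's transcripts. Per kilobase, the summed mt-Nd transcripts exceeded the summed nuclear complex I transcripts 17.6-fold in high replicate 1 and 554-fold in high replicate 2. For complex III the ratio ran from 9.48-fold to 523-fold, for complex IV from 32.7-fold to 1460.3-fold and for complex V from 15.8-fold to 503-fold, with the lowest ratio of each in high replicate 1. The ratio between nuclear and mitochondrial transcripts of 1 complex thus varied between livers by 31.6-fold in complex I, 55.2-fold in III, 44.7-fold in IV and 31.7-fold in V. The mitochondrial sums leave out the 11 nuclear copies of mitochondrial genes. These copies held from 10.9% of counts in high replicate 1 to 23.3% in low replicate 1, and ratios that include them were not computed. Mitochondrial transcripts and members are both measured in the same library, and whether handling, RNA quality or the makeup of the tissue moved this ratio was not tested.

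Transcript length went with the slope. The 31 tested members with transcripts under 600 bases had a median slope of -1.01 on the log2 scale per 10 points of share, the 25 members of 600 to 1000 bases a median of -0.66 and the 28 longer members a median of -0.60. Over all nuclear genes tested the medians in the same classes were -0.32, -0.17 and 0.01. Across the 84 members Spearman's rho between length and slope was 0.491, and 0.425 after the median of each complex was removed, while across 16271 nuclear genes it was 0.145. These are descriptions across genes of the same 12 libraries, which are not independent replicates. Of the 7 core subunits of complex I, 5 have transcripts of 1000 bases or more, and among these 5 the slopes ran from -0.77 for Ndufv2 to -0.08 for Ndufs1.

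**Figure D4:**
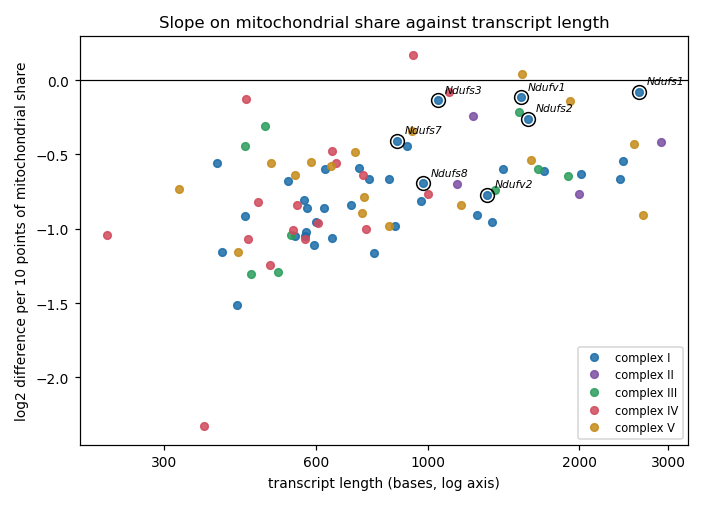
Slope on the mitochondrial share (log2 difference in level per 10 percentage points) against transcript length (bases, log axis) for the 84 tested members, coloured by complex, with the 7 core subunits of complex I circled. Members under 600 bases reach the steepest slopes, with a median of -1.01, against -0.60 for members of 1000 bases or more.

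The heart and skeletal muscle isoforms of cytochrome c oxidase had their highest levels in high replicate 1. Cox6a2, Cox7a1 and Cox8b are the isoforms known from heart and skeletal muscle, and the liver mainly uses Cox6a1, Cox7a2 and Cox8a. Cox6a2 had 447 of its 451 counts in high replicate 1 and 0 counts in 10 of the other livers. Cox8b had 333 of its 364 counts there, 12 in high replicate 3, 3 in high replicate 2 and 0 in all 3 controls. Against a floor of 3 counts in each control library, the high group mean of Cox8b was at least 17.8-fold higher, and the level in high replicate 3 alone was 3.04 times that floor. The fitted log2 difference of Cox8b, 9.07 ± 2.35 (SE; edgeR adjusted p = 0.352), rests on the prior count and was 5.88 without high replicate 1 (edgeR adjusted p = 0.739). The median over the members was 1.46 also with Cox8b at its bound. DESeq2 called Cox8b in the high comparison and in the slope on dose, but Cox8b passed the filter through the livers where it is high. These calls are therefore descriptions and no test of dose. In the medium comparison Cox8b had 8, 3 and 0 counts in the 3 livers. Cox7a1 stood at 0.705, 0.423 and 0.268 CPM in the controls and at 4.54, 0.258 and 1.44 CPM in the high livers, with 490 of its 887 counts in high replicate 1. Relative to Cox7a2, however, Cox7a1 did not set that liver apart. The log2 ratio of Cox7a1 to Cox7a2 was -3.24 in high replicate 1, -2.68 in high replicate 3, -3.44 in low replicate 3 and -3.48 in control replicate 1.

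Markers of muscle were present in the same liver. The summed level of 7 smooth and striated muscle markers was 105 CPM in high replicate 1 and between 0.559 and 3.41 CPM in the other 11 livers. Acta1, the actin of skeletal muscle, stood at 50.5 CPM in high replicate 1 and at most at 0.168 CPM elsewhere. Ckm, the muscle creatine kinase, stood at 25.6 CPM there and at most at 0.143 CPM elsewhere, and Myh7 at 0.954 CPM there and at 0 in the other 11 livers. The summed level of 5 adipocyte markers was 2.13 CPM in high replicate 1 and at most 0.39 CPM in the others, and Plin1 was at 0 in all. The part of muscle RNA in the member levels of high replicate 1 was not tested, and the results without that liver are given above.

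**Figure D5:**
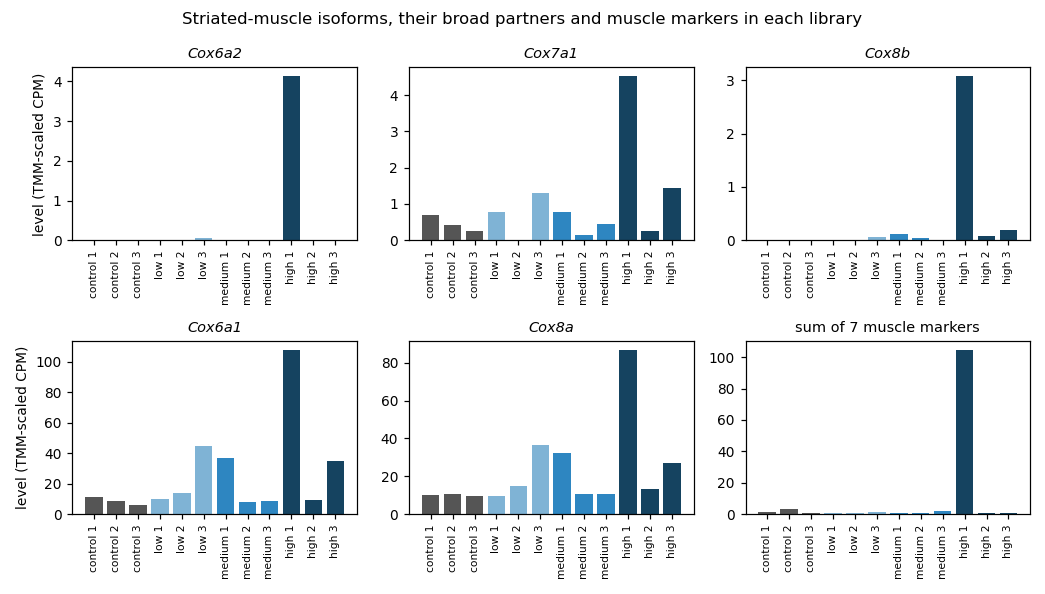
Level (TMM-scaled CPM) in each library of the striated-muscle isoforms Cox6a2, Cox7a1 and Cox8b, of the broadly expressed partners Cox6a1 and Cox8a, and the summed level of 7 muscle markers. The muscle isoforms and the markers are highest in high replicate 1, with 1.44 CPM of Cox7a1 in high replicate 3 the next highest isoform level, while Cox6a1 and Cox8a are also raised in low replicate 3, medium replicate 1 and high replicate 3.

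Ratios between isoform and partner were computed for 6 of 8 pairs, those in which both genes passed the filter, with p-values adjusted over the 6 ratios. The log2 ratio of Cox8b to Cox8a, computed with a prior count of 2, was -8.27, -8.28 and -8.18 in the controls, values that the prior count sets since Cox8b had 0 counts there. In the high livers it was -4.80, -7.01 and -6.92, but high replicate 2 had only 3 counts of Cox8b, which a count of 0 allows, so its place above the controls is also set by the prior count. Cox8b passed the filter through the livers where it is high, and its ratio is therefore given as a description with no test. The slope on dose was 2.23 per 100 mg/kg with a prior count of 2, 4.03 with a prior count of 0.5, and 1.45 without high replicate 1. Outside high replicate 1 it rests on 31 counts of Cox8b in 11 livers.

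Ndufa4l2 (ENSMUSG00000040280), a paralog of Ndufa4 known to be induced by hypoxia, had the highest slope on the mitochondrial share of all tested members and the lowest fitted difference at the high dose. It stood at 1.16, 0.846 and 2.30 CPM in the controls and at 0.991, 0.987 and 0.681 CPM in the high livers, inside or below the control range. Its fitted slope on dose was -0.81 ± 0.35 (SE; edgeR adjusted p = 0.434). Its log2 ratio to Ndufa4 was -2.50, -3.15 and -1.33 in the controls and -5.89, -2.50 and -4.09 in the high livers, with a slope on dose of -1.86 (permutation test over 12 livers, adjusted p = 0.0814). Without high replicate 2 the slope was -2.63 (permutation test, adjusted p = 0.0115), and without high replicate 1 it was -1.02 (permutation test, adjusted p = 0.453). Ndufa4 itself was above all controls in high replicates 1 and 3, as given above, so the fall of this ratio also reflects the higher level of Ndufa4. For the genes of the c ring, the ratio of Atp5g1 to Atp5g2 had a slope of 0.34 and that of Atp5g3 to Atp5g2 a slope of -0.05, with adjusted p-values of 0.615 and 0.884 by the same permutation test. Copies of Atp5g2 elsewhere in the genome held 53.9% as many counts, so its ratios are uncertain. The Cox6b2 to Cox6b1 and Cox7a1 to Cox7a2 ratios had slopes of -1.17 and 0.82 (permutation test, adjusted p = 0.615 and 0.654). With 1 library left out these slopes ran from -1.91 to -0.60 and from 0.28 to 1.22, and that of Atp5g1 to Atp5g2 from 0.15 to 0.62.

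Other mitochondrial genes were compared through lists, to be read against the 18.5% of all genes called lower and the 15% called higher with the mitochondrial share. On that share, 20 of 45 tested assembly factors of the complexes were called lower and 2 higher, with a median slope of -0.19. Of 78 mitochondrial ribosomal proteins 44 were called lower and 2 higher (median -0.23), and of 14 tricarboxylic acid cycle genes 7 were called lower and 0 higher (median -0.20). Of 10 carriers and channels 8 were called lower and 0 higher, with a median of -0.38. Of 11 mobile carriers and linked dehydrogenases 6 were called lower and 1 higher, with a median of -0.34; Cycs, which encodes cytochrome c, fell by 0.63 ± 0.06 on the log2 scale per 10 points (SE; edgeR adjusted p = 3.3e-06). Of 17 regulators of mitochondrial biogenesis 1 was called lower and 5 higher, with a median of 0.13. Tfam, which packages mitochondrial DNA, fell by 0.28 ± 0.06 per 10 points and Esrra, a nuclear receptor that drives such genes, rose by 0.29 ± 0.07 (SE; edgeR adjusted p = 0.00213 and 0.00326).

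Genes of the cytosolic ribosome, which lie outside the mitochondria, moved in the same way as the members: 64 of 79 were called lower at a higher share and 0 higher, with a median of -0.58. In the high comparison the 79 cytosolic ribosomal protein genes had a median log2 difference of 1.26 and the members one of 1.46, with 0 called in each by edgeR, and 44 of the 79 were higher at an unadjusted p under 0.05. In the low comparison, however, 47 of these 79 genes had all low livers above all controls, against 12 of the 84 members, beside 7.41% of all genes. Of the 10 hepatocyte markers, 6 (Alb, Ttr, Apoa1, Apoc3, Serpina1a and Fgb) were also highest in the 4 livers with the lowest mitochondrial share. Alb stood at 24998 CPM in low replicate 3, 19918 in medium replicate 1, 33935 in high replicate 1 and 21155 in high replicate 3, and at 9074 CPM or less in the other 8 livers. The 4 others had another order. Tat was highest in high replicate 2, at 783 CPM, Cps1 in medium replicate 3, at 532 CPM, and Fga in high replicate 1, at 261 CPM, with medium replicate 3 next, at 213 CPM. Hnf4a, the transcription factor that marks hepatocytes, stood between 129 and 225 CPM in all 12 livers, with its highest level in high replicate 2. The part of these other gene groups in the level of the members was not tested.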

How the data were processed

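The members and gene lists were chosen with earlier results of these data known. The authors deposited 1 table of raw read counts per gene, with 12 library columns and 56923 rows, of which 52073 carry a symbol. STAR 2.7.10b, StringTie 2.2.1, fastp 0.23.4 and the build mm39 are named in the submitters' processing notes. The sources used here do not give whether counting used strand or reads that map to several places. Total liver RNA was extracted with TRIzol and libraries were made with a Hieff kit, per the labels' protocols. RNA selection was not stated there. Libraries were grouped by their labels.

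From the counts, edgeR 4.0.16 (R 4.3.3) kept genes passing filterByExpr, scaled libraries by TMM and fitted a quasi-likelihood model over all 12 libraries, with Benjamini-Hochberg adjustment over 16839 genes and a threshold of 0.05. The contrasts were each dose against control, a slope on dose and a slope on the mitochondrial share. Isoform ratios, with a prior count of 2, were tested with 100000 permutations or exactly. DESeq2 1.42.0 and limma 3.58.1 (voom) were alternatives, as were other scalings, no filter, the mitochondrial share as a term, a replicate block and leaving out each library. Named members were, per complex, the 2 highest and the lowest tested per length, the 3 with the smallest p in each contrast, the 3 with the largest p in the slope on share, the Sdh genes, Cyc1 and the isoform pairs, with at most 3 genes from another list. Others named were chosen after their values were seen. Near-identical copies were found with BLAST+ 2.17.0, and promoter windows were read with Python 3.11.15. No library pair of a group agreed within sampling noise, the smallest chi-square per degree of freedom being 38.9. A count of 0 allows up to 3 counts, which covers counting error only. The fit was tested on simulated data with known changes. In the simulated high comparison it recovered 5.97% of changes of 1 on the log2 scale, 80.6% of changes of 2 and 97.0% of changes of 3. For the slope on share it recovered 52.2% at 0.5 and 97.0% at 1. The spread of the simulated counts was estimated with the groups as the design, also for this slope. The real fit of the slope estimated the spread with the share in the model, so these rates may not apply to it. A dose difference of about 1 on the log2 scale would thus mostly go uncalled, and 0 called members does not show that the members were unchanged.
Same-numbered libraries of different groups were checked for pairing; of 18 pairs 5 correlated above 0.1, and the numbers were not treated as pairs.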

Additional observations from a re-analysis of the deposited data

How the results depend on the processing

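The count of members called in the dose contrasts was 0 under each alternative run except DESeq2, which called 1 in the high comparison and 1 in the slope on dose. The median of the high comparison was 2.36 with library totals as the scale and -0.082 with the mitochondrial share as a term, which also took the median of the slope on dose to -0.14. With 1 library left out, the median ran from 0.03 to 0.94 in the low, from 0.01 to 0.77 in the medium and from 0.62 to 1.88 in the high comparison, and from 0.52 to 1.68 in the slope on dose. For the slope on the mitochondrial share, with 1 library left out, 66 to 76 members were called lower, the 66 without high replicate 1, where 11.3% of all genes were lower. Its median was -1.19 with library totals, -0.90 with totals without mitochondrial genes, -0.52 with totals that also leave out the nuclear copies and -0.53 with the copies counted in the share. With library totals the ratio of highest to lowest library was 14.1 for complex I, 12.9 for II, 19.2 for III, 22.6 for IV and 14.6 for V. The cause of these changes was not tested.

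Members that were not called changed sign. The share slope of Atp5s was -0.45 with library totals (edgeR adjusted p = 0.00729), -0.15 with totals without mitochondrial genes, -0.0026 with voom and -0.058 without the 2 livers farthest in share, and ran from -0.052 to 0.084 with 1 library left out. That of Cox6b2 was 0.047 with totals that leave out the copies too and 0.079 without those 2 livers. That of Cox7a2l was called lower with library totals, at -0.54, and with totals without mitochondrial genes, at -0.25. It was 0.12 and 0.18 in the same settings and 0.035 with voom, and ran from -0.15 to 0.18 with 1 library left out. The slope on dose of Ndufa4 was -0.0052 with the mitochondrial share as a term. With 1 library left out, the dose slope of the Atp5g3 to Atp5g2 ratio ran from -0.21 to 0.14, that of Ndufa4l2 to Ndufa4 from -2.63 to -1.02 and that of Cox8b to Cox8a from 1.45 to 2.497.

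Same-numbered libraries correlated from -0.26 to 0.45, and 6 of 12 correlated best with their own number. These correlations do not settle whether replicate numbers pair the livers. With the replicate block 0 members were called in each dose contrast. In the slope on share 74 members were called lower with the block, where 4179 of 16839 genes were called in either direction. The medians with the block were 0.69, 0.47 and 1.18 in the low, medium and high comparisons, 1.01 in the slope on dose and -0.65 in the slope on share. For the 5 isoform ratios given with a test, exchanging doses only among livers with the same number, an alternative chosen after seeing the data, gave exact permutation adjusted p-values from 0.11 to 0.892 and no call. The range of a complex sum over the livers comes from no test, so a block does not bear on it.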

Other observations

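A row named Ndufb1-ps, left out by its name, held 26089 counts, with 919, 842 and 316 in the controls, 236, 328 and 5847 in the low livers, 3866, 1105 and 1046 in the medium livers and 8392, 324 and 2868 in the high livers. Its highest counts were thus in the same 4 livers as those of most members.

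Marker genes of other cell types differed between the livers as well. The summed level of 9 hepatic stellate cell markers, the cells that lay down scar tissue, ran from 36.5 to 249 CPM, with 249 CPM in high replicate 1 and 147 CPM in high replicate 3. On the mitochondrial share, 7 of the 9 were called lower by edgeR and 0 higher, with a median slope of -0.68 on the log2 scale per 10 points. By the same rule 18.5% of all genes were lower and 15% higher. Of 10 hepatocyte markers 7 were called lower and 0 higher, with a median of -0.67. Of 6 neutrophil markers 0 were called in either direction by edgeR, also at an unadjusted p under 0.05, with a median of 0.22. Their part in the levels of the respiratory chain genes was not tested.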
